A study of Mus musculus with 9 samples.

Results

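The genes described here are 34 mouse genes of fatty acid and cholesterol metabolism, taken from the 24419 gene symbols of the count table by a list of symbols. They fall into 3 classes: 9 genes of fatty acid synthesis, 11 of fatty acid oxidation and 14 of cholesterol synthesis. Most encode enzymes, while Thrsp and Insig1 encode regulatory proteins. RNA from liver of male FVB mice was sequenced, with 3 mice in each of 3 groups. The CTRL group was sampled at ages of 13, 13 and 17 weeks. The MODEL1 group, sampled at 18 weeks, carried NFE2L2 G31A (NFE2L2 encodes the antioxidant regulator NRF2) and CTNNB1 T41A, an altered beta-catenin. The MODEL2 group, sampled at 19, 20 and 22 weeks, carried NFE2L2 T80K with the same CTNNB1 T41A. In both models 20 µg of each plasmid in 2 ml of saline was given by hydrodynamic tail vein injection, a rapid injection that carries DNA into hepatocytes, together with a Sleeping Beauty transposase that inserts it into the genome. The labels leave out the promoter of the transgenes, whether the liver piece held tumour, and whether CTRL mice received an injection. In its design text the series speaks of controls with wild-type NFE2L2 and mutant beta-catenin, which the labels of the sequenced CTRL mice do not repeat. The ages of the 3 groups did not overlap, so age and genotype cannot be told apart.

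In liver, acetyl-CoA is built into fatty acids by acetyl-CoA carboxylases and fatty acid synthase, then desaturated and elongated, a programme driven by the transcription factors SREBP1c and ChREBP. Fatty acids are broken down in mitochondria after transfer to carnitine, and in peroxisomes, by enzymes that PPAR alpha controls. Cholesterol is made from acetyl-CoA through mevalonate, squalene and lanosterol by enzymes under the control of SREBP2, which Insig proteins hold in the endoplasmic reticulum when sterols are plentiful.

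The values are read counts per gene, from libraries of 219504 to 325177 counts. An upper limit of 3 counts, which a count of 0 allows, came to 9.23 to 13.7 CPM (counts as a share of library size; counts were scaled by library totals for this limit, and elsewhere by totals corrected with edgeR's trimmed mean of M values, TMM). Counts of 2 were at least as frequent as counts of 1 in 8 of 9 libraries, so counting intervals are given also for counts halved, and they cover counting error only. Rn45s, the ribosomal RNA precursor, held 2.20% to 13.4% of the counts, with the highest shares in CTRL replicate 1 and MODEL1 replicates 1 and 3. Symbols with an exon opposite an exon of another gene were 24.2% of those placed on the genome and held 79.0% of the placed counts; the strand setting of the counting is not given in the sources used here, so reads of such pairs cannot be told apart. The 6 hepatocyte markers, led by Alb (94 to 337 counts per library), summed to 1864 to 2413 CPM in CTRL, 715 to 1154 in MODEL1 and 976 to 1274 in MODEL2. Of the 3 that could be tested, Alb and Apoa1 fell in both models and Ttr was not called. Against CTRL, 22.8% (MODEL1) and 13.3% (MODEL2) of all tested genes were called. Alb and Apoa1, with 1700 and 1200 counts, made up most of the sum. In CTRL, MODEL1 and MODEL2 the pooled counts of Tat were 25, 8 and 12, of Hnf4a 19, 20 and 7, and of Serpina1a 21, 4 and 23. In these bulk samples fewer hepatocytes, less RNA per hepatocyte and lower expression of the marker genes themselves cannot be told apart.

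The 34 members together held 2825 counts, and 225 to 395 counts, or 0.0807% to 0.150%, of a library. Between 10 and 21 of them had 0 counts in a library. Gene positions are given on mm10, from GENCODE M21. Vnn1, a pantetheinase, had 0 counts in all 9 libraries, and 13 members had under 10 counts in all. Counts were concentrated: Fdft1 and Sqle held 58.5% of them. Per kilobase of exon, over all libraries, Fdft1 had 279 counts, Sqle 85.5, Acadvl 67.4, Scd1 55.0 and Thrsp 28.8. On that scale the genes of squalene synthesis and epoxidation, of the entry to mitochondrial oxidation of very long chains, and of desaturation had the most counts. Fdft1 and Acadvl share exon bases with a gene on the other strand, so their counts may hold reads of that gene. The 7 members with an exon opposite another gene's exon held 56.6% of the members' counts. These were Elovl6, Acadvl, Hadha, Hmgcs1, Fdft1, Idi1 and Lss, with a median of 8.36 counts per kilobase against 3.50 for the other 27.

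Since the introduced proteins act through known DNA motifs, the promoters of the members were searched for these and for motifs of lipid regulators, on both strands, in RefSeq windows of 300 bases (250 before and 50 after a start, mouse build GRCm38.p6). Windows were matched for 29 members, all but Fdps, Sqle, Vnn1, Fdft1 and Scd1. The sterol response element TCACNCCAC, the SREBP motif, was present in 2 of the 29, Hmgcs1 and Ehhadh, and in 1.44% of 27025 genes. The antioxidant response element TGACNNNGC, bound by NRF2, was present in 4 members, against 14.0% of all genes. The TCF/LEF motif CTTTGAA, through which beta-catenin acts, was present in 3 members, against 5.93% of all genes. The E-box CACGTG of the carbohydrate response was found in 4 members, Elovl5, Dhcr7, Sc5d and Insig1, and in 8.09% of all genes. A direct repeat for PPAR was found in 0 members and in 0.0481% of all genes. In Ehhadh the sterol and antioxidant motifs overlapped by 3 bases. The matches to the sterol, antioxidant and TCF/LEF motifs are printed here, since SREBP2 controls these pathways and NRF2 and beta-catenin are the proteins that were altered; capitals mark the match, each sequence reads along its gene, and a motif on the other strand appears as its reverse complement. A match is a description of letters and not of binding.
Hmgcs1, sterol response element, chr13:119690204-119690232, plus strand: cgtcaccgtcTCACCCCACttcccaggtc
Ehhadh, sterol response element, chr16:21787987-21788015, minus strand: attgacgttgGTGGTGTGAcccagcagtt
Ehhadh, antioxidant response element, chr16:21787981-21788009, minus strand: gttggtggtgTGACCCAGCagtttggctt
Dhcr7, antioxidant response element, chr7:143829987-143830015, plus strand: ctcccaccaaGCGGAGTCAgaccgccgac
Mvk, antioxidant response element, chr5:114444038-114444066, plus strand: ggcccggggaTGACTCCGCcccgcagccg
Pmvk, antioxidant response element, chr3:89459549-89459577, plus strand: agggacaggaTGACAGGGCaggggaaggc
Elovl6, TCF/LEF site, chr3:129532136-129532160, plus strand: aaacttcaTTCAAAGgccaggcagg
Pnpla3, TCF/LEF site, chr15:84167611-84167637, plus strand: gaaaagggtaTTCAAAGagccattctg
Pmvk, TCF/LEF site, chr3:89454438-89454464, plus strand: cacctgtaacTTCAAAGtaaaaaacca

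No member passed the test in any of the 3 comparisons. MODEL1 and MODEL2 were each set against CTRL, and MODEL2 against MODEL1, with edgeR's quasi-likelihood test and Benjamini-Hochberg adjustment over all genes at 0.05. Only 7 of the 34 members had enough counts to be tested: Fasn, Scd1, Acadvl, Hadha, Sqle, Fdft1 and Lss. Against CTRL, MODEL1 had 0 of 7 called, while 22.8% of all 2639 tested genes were called. MODEL2 against CTRL had 0 of 7 called, beside 13.3% of all genes, and MODEL2 against MODEL1 had 0 of 7, beside 7.28%. DESeq2 also called 0 in each comparison. At an unadjusted p under 0.05 edgeR had 1, 1 and 2 members in these comparisons, and DESeq2 1, 1 and 1. The edgeR ones were Fdft1 in both models against CTRL, and Scd1 and Sqle in MODEL2 against MODEL1. Over the 7 members the median log2 fold change stood at -0.41 for MODEL1 and 0.20 for MODEL2, each against CTRL, and at 0.24 between the models, where all tested genes had medians of 0.00025, 0.0011 and 0.0076. Both models share the CTRL libraries.

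**Figure D1:**
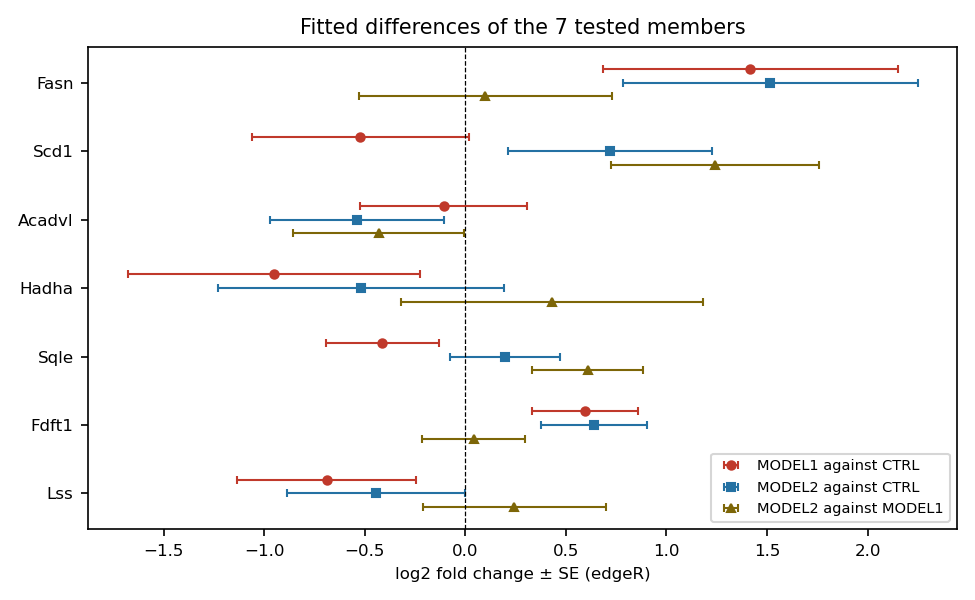
Fitted log2 fold change (x axis) with its standard error for the 7 tested members (y axis) in the 3 comparisons, from edgeR. Fasn and Fdft1 lie above 0 in both models against CTRL, Acadvl, Hadha and Lss lie below it, and none passed the adjusted threshold.

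The libraries of 2 groups did not overlap for 2 of the 7 tested members in MODEL1 against CTRL (Sqle and Lss, both lower in MODEL1), against 35.9% of all tested genes. They did not overlap for 1 member, Fasn, which was higher in MODEL2 than in CTRL, against 29.7%. Between the models they did not overlap for 2 members, Scd1 and Sqle, both higher in MODEL2, against 26.9%. With 7 members tested, these counts lie near the background and are not a result about the members. They hold for TMM scaling: by library totals Lss, Fasn and Scd1 each overlapped, and Sqle stayed apart.

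Counts summed over the 3 mice of a group, scaled by the summed library sizes, gave a ratio also for members too low to test. Where the 2 groups together had at least 10 counts, an exact 95% counting interval was set on the ratio. In MODEL1 against CTRL the interval excluded 1 for 9 of 20 such members, 4 higher (Fasn, Ehhadh, Hmgcs1 and Fdft1) and 5 lower (Scd1, Hadha, Sqle, Lss and Sc5d), against 37.3% of 6549 genes. With counts halved it excluded 1 for 2, Hmgcs1 and Fdft1, against 22.9%. In MODEL2 against CTRL it excluded 1 for 3 of 16, all higher (Fasn, Scd1 and Fdft1), against 32.9% of 5986 genes, and with counts halved for 2, Scd1 and Fdft1, against 18.3%. In MODEL2 against MODEL1 it excluded 1 for 5 of 18, with Scd1 and Sqle higher and Cpt2, Acadl and Hmgcs1 lower, against 29.3% of 6426 genes, and with counts halved for 2, Scd1 and Sqle, against 16%. Read against those shares, the members' counts lay near or below the background, apart from the 9 of 20, which lay somewhat above it. These intervals hold no spread between mice. Scaled by library totals without TMM, the interval of MODEL1 against CTRL excluded 1 for 5 members (Fasn, Ehhadh, Hmgcs1, Fdft1 and Sc5d), and Scd1, Hadha, Sqle and Lss were no longer apart from 1. Without the 3 libraries with most Rn45s it excluded 1 for 3 (Fasn, Ehhadh and Hmgcs1). Of the 9 members it still excluded 1 for 3 without MODEL1 replicate 2 (Scd1, Hadha and Fdft1). Without CTRL replicate 1 it did so for 5 (Scd1, Hadha, Hmgcs1, Sqle and Fdft1), and without CTRL replicate 2 for 5 (Fasn, Hmgcs1, Fdft1, Lss and Sc5d). Leaving out CTRL replicate 3 left 6.

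**Figure D2:**
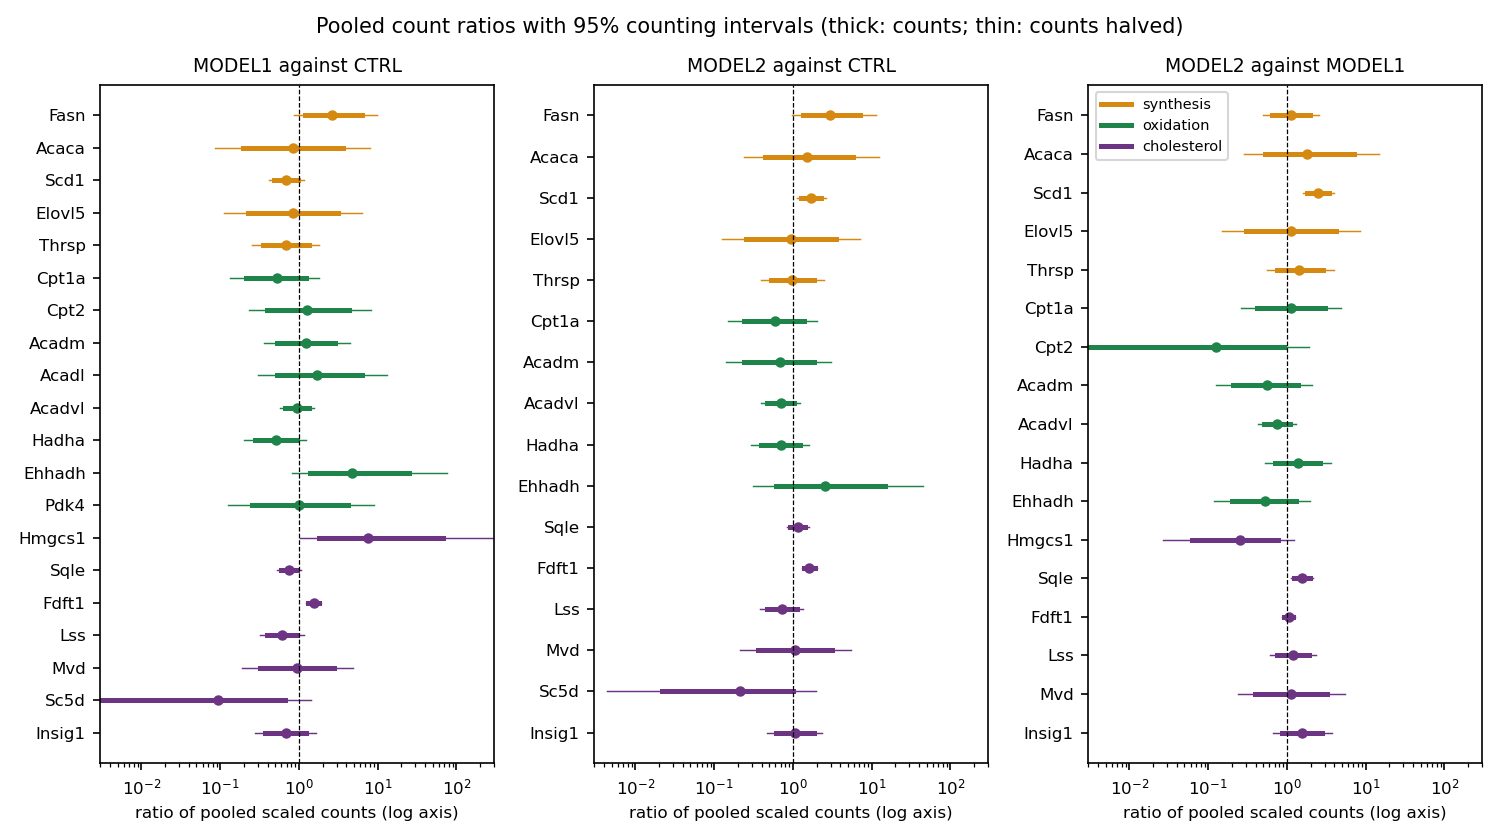
Ratio of pooled scaled counts (x axis, log scale) for each member with at least 10 counts in the 2 groups (y axis), with 95% counting intervals of the counts (thick) and of the counts halved (thin), in 3 panels by comparison. The intervals are narrowest for Fdft1 and Sqle; Acadl has no ratio in MODEL2 against MODEL1 because MODEL2 had 0 counts, and intervals that leave the panel are clipped at its edge.

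Among the genes of fatty acid synthesis, with TMM scaling, Scd1 stood higher in all MODEL2 libraries than in all MODEL1 libraries. Fasn stood higher in all MODEL2 libraries than in all CTRL libraries. Neither passed the test, and by library totals without TMM both separations were lost. Scd1 (stearoyl-CoA desaturase, which makes monounsaturated fatty acids; chr19:44394455-44407879, minus strand) held 58.4% of the counts of its class. Its levels were 75.6, 201 and 38.8 CPM in CTRL, 17.8, 134 and 61.0 in MODEL1 and 177, 191 and 145 in MODEL2, for replicates 1 to 3 of each. All 3 MODEL2 libraries lay above all 3 of MODEL1, while CTRL replicate 2 stood as high as MODEL2 and spread CTRL over the range of both models. By library totals MODEL1 replicate 2 (35 of 219504 counts) lay above MODEL2 replicate 3 (38 of 248443). The means were 105 ± 85.1, 71.0 ± 58.8 and 171 ± 23.8 CPM (SD, n = 3). MODEL2 was higher than MODEL1 by 1.24 ± 0.52 (log2 fold change ± SE, edgeR adjusted p = 0.169), with a pooled ratio of 2.48 (1.82 to 3.41). Without the libraries with most Rn45s, 2 of which are MODEL1 libraries, the ratio was 1.27 (0.871 to 1.90), and without MODEL1 replicate 2 it was 4.11 (2.68 to 6.51). Under looser filters on low counts, at least 1 CPM in 3 libraries or no filter, this difference passed the threshold, with edgeR log2 fold changes of 1.34 ± 0.38 (adjusted p = 0.0239) and 1.35 ± 0.38 (adjusted p = 0.0418). Against CTRL, Scd1 differed by -0.52 ± 0.54 in MODEL1 (adjusted p = 0.541) and by 0.72 ± 0.51 in MODEL2 (adjusted p = 0.399). CTRL replicate 2 moved both values: without it the values were 0.29 in MODEL1 and 1.55 ± 0.52 in MODEL2, the latter with an edgeR adjusted p of 0.0496.

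Fasn (fatty acid synthase, chr11:120805846-120824547, minus strand) had 1, 2 and 6 counts in the CTRL libraries, 9, 14 and 5 in MODEL1 and 7, 10 and 11 in MODEL2. In CPM the MODEL2 libraries did not overlap those of CTRL, whereas MODEL1 replicate 3 lay below CTRL replicate 3. By library totals MODEL2 replicate 1 (7 of 288547 counts) lay just below CTRL replicate 3 (6 of 243876). Scaled levels for CTRL, MODEL1 and MODEL2 were 12.1 ± 10.1, 33.4 ± 19.6 and 36.0 ± 9.28 CPM (SD, n = 3). In edgeR Fasn differed from CTRL by 1.42 ± 0.73 in MODEL1 (adjusted p = 0.181) and by 1.52 ± 0.73 in MODEL2 (adjusted p = 0.192), and the models differed by 0.10 ± 0.63 (adjusted p = 0.959). Its pooled ratios to CTRL were 2.60 (1.19 to 6.27) and 2.94 (1.35 to 7.07), and both intervals took in 1 with counts halved. With age as a covariate the differences from CTRL became 0.35 ± 0.99 in MODEL1 and -0.39 ± 1.41 in MODEL2. Single libraries moved them too: without CTRL replicate 3 they were 2.31 and 2.43, and without CTRL replicate 1 they were 0.96 and 1.08. Without MODEL1 replicate 2 the MODEL1 difference was 0.91, and the pooled ratio was 1.84 (0.743 to 4.83).

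The other 7 genes of synthesis had few counts, and no counting interval with 10 counts or more excluded 1. Thrsp, a nuclear protein that promotes lipogenesis, had 22, 18 and 23 pooled counts in CTRL, MODEL1 and MODEL2. Acaca, the cytosolic acetyl-CoA carboxylase, had 5, 5 and 8, and Elovl5, an elongase of polyunsaturated fatty acids, had 6 in each group. The ratio of Thrsp to CTRL was 0.684 for MODEL1 (0.346 to 1.34) and 0.987 for MODEL2 (0.526 to 1.86). Acacb, the mitochondrial carboxylase, had 6, 1 and 2 counts. Acly, which supplies cytosolic acetyl-CoA, had 0 counts in CTRL and 4 in each model. With 3 counts put in place of 0 for CTRL, it was 1.12-fold higher in MODEL1 and 1.26-fold higher in MODEL2. Such folds leave out the counting error of the other group. Elovl6, an elongase of saturated chains, had 5, 2 and 0 counts, which on the same basis put MODEL2 1.77-fold lower than CTRL. Pnpla3, a lipase of lipid droplets, had 2, 2 and 0 counts. These totals are too small to tell a change from counting error.

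**Figure D3:**
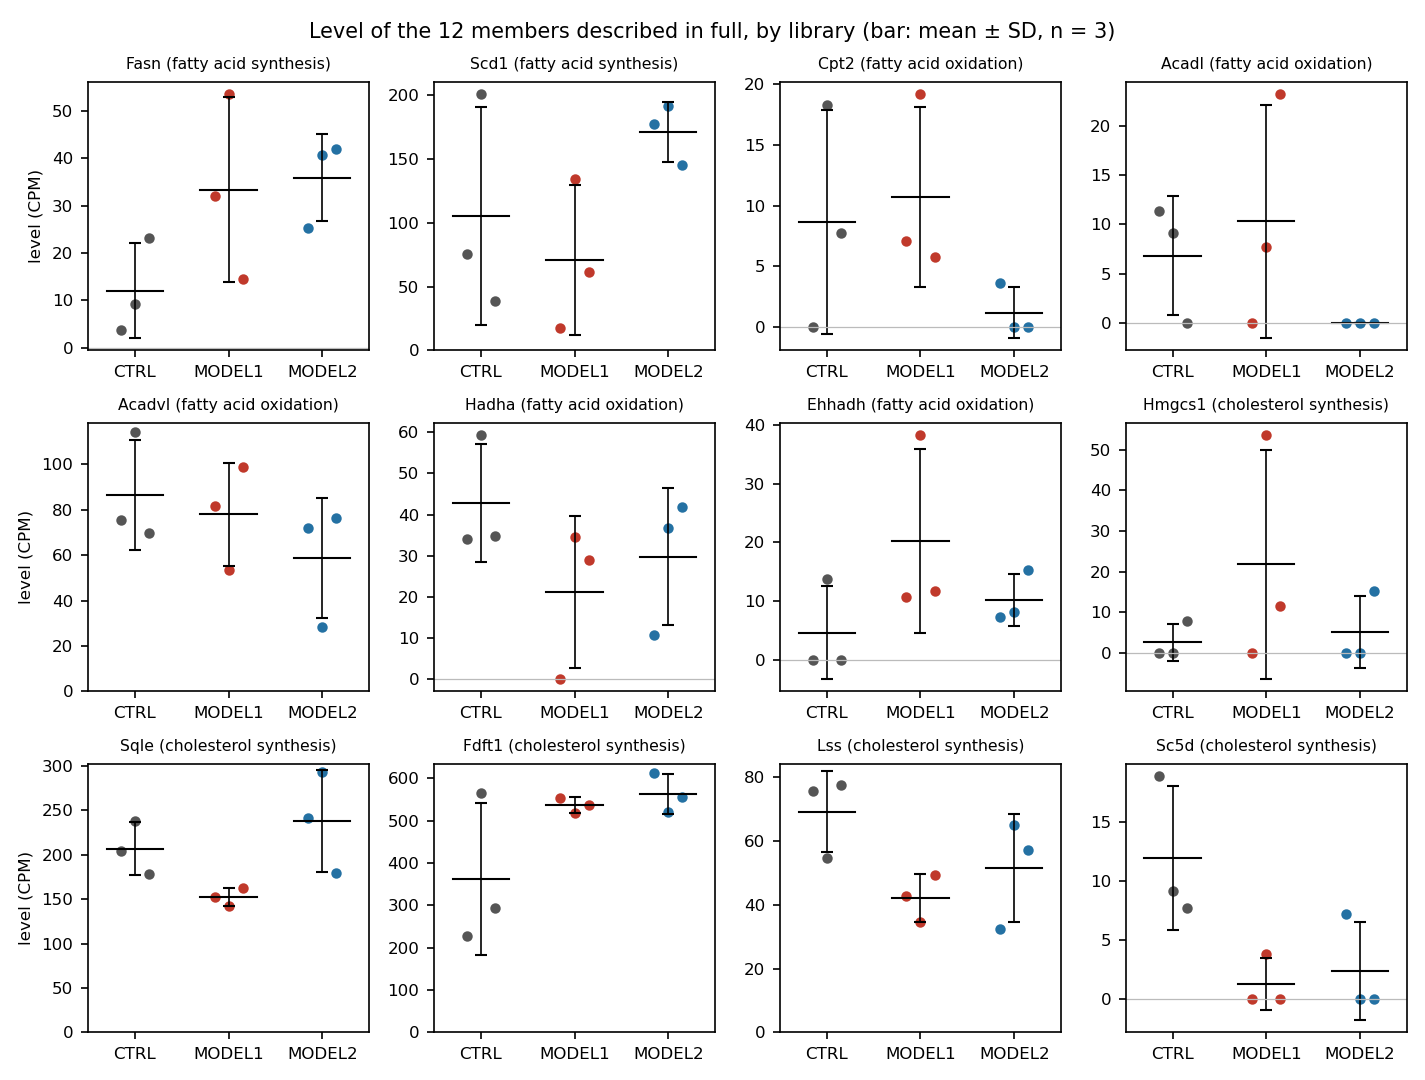
Level in CPM (y axis, linear, with its own range in each panel) of the 12 members described in full, by library and group, with the mean ± SD of 3 mice. CTRL replicate 2 stands with the models for Fdft1 (566 CPM) and with MODEL2 for Scd1 (201 CPM), and MODEL1 replicate 2 is the highest library for Hmgcs1 and Ehhadh.

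Among the genes of fatty acid oxidation, those with most counts did not separate the groups. Acadvl (very long chain acyl-CoA dehydrogenase, chr11:70010183-70015411, minus strand) had levels of 75.6, 114 and 69.8 CPM in CTRL, 81.8, 53.7 and 98.8 in MODEL1 and 72.2, 28.5 and 76.2 in MODEL2. All 3 groups overlapped. The edgeR differences were -0.11 ± 0.42 in MODEL1 (adjusted p = 0.891) and -0.54 ± 0.43 in MODEL2 (adjusted p = 0.470), each against CTRL. Its pooled ratios to CTRL were 0.943 (0.662 to 1.34) and 0.704 (0.472 to 1.04). Its exons share 1151 bases with exons of Dvl2 on the other strand, a gene of Wnt signalling that had 122 counts where Acadvl had 181.

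Hadha (alpha subunit of the mitochondrial trifunctional protein, chr5:30118304-30155162, minus strand) had 9, 13 and 9 counts in CTRL, 0, 9 and 10 in MODEL1 and 3, 9 and 11 in MODEL2. Its low MODEL1 mean, 21.2 ± 18.5 CPM against 42.8 ± 14.4 in CTRL and 29.8 ± 16.6 in MODEL2 (SD, n = 3), came with MODEL1 replicate 1, where it had 0 counts. In edgeR it differed from CTRL by -0.95 ± 0.73 in MODEL1 (adjusted p = 0.390) and by -0.52 ± 0.71 in MODEL2 (adjusted p = 0.699). It shares 75 exon bases with Garem2. Hadhb, which encodes the beta subunit and starts 86 bases away on the other strand, had 3, 2 and 5 pooled counts.

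Ehhadh, the peroxisomal bifunctional enzyme whose promoter match to the sterol motif is printed above (chr16:21761287-21787807, minus strand), had 0, 3 and 0 counts in CTRL, 3, 10 and 4 in MODEL1 and 2, 2 and 4 in MODEL2. Its pooled ratio of MODEL1 to CTRL was 4.74 (1.37 to 25.2), and 0.827 to 75.1 with counts halved. Without MODEL1 replicate 2 it was 2.77 (0.631 to 16.6), and without CTRL replicate 1 or 3 it was 3.05 (0.882 to 16.2) or 3.09 (0.894 to 16.5), so each of these intervals took in 1. CTRL replicate 2 overlapped both models in CPM, and the ratio of MODEL2 to CTRL was 2.52 (0.604 to 14.7). Cpt2, the inner membrane carnitine palmitoyltransferase (chr4:107903981-107923610, minus strand), had 0, 4 and 2 counts in CTRL, 2, 5 and 2 in MODEL1 and 1, 0 and 0 in MODEL2. Its libraries did not overlap between the models, with a ratio of MODEL2 to MODEL1 of 0.125 (0.00286 to 0.905). Acadl, the long chain acyl-CoA dehydrogenase (chr1:66830839-66863277, minus strand), had 3, 2 and 0 counts in CTRL, 0, 2 and 8 in MODEL1 and 0 in all 3 MODEL2 libraries. With 3 counts put in place of 0, MODEL2 was 2.95-fold lower than MODEL1 and 1.77-fold lower than CTRL. These folds leave out the counting error of MODEL1 and CTRL, and MODEL1 replicate 1 and CTRL replicate 3 also had 0. For Cpt2 and Acadl the intervals took in 1 with counts halved.

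The remaining members of the oxidation class had no interval that excluded 1. Cpt1a, which commits fatty acids to mitochondrial oxidation, had 16, 10 and 10 pooled counts in CTRL, MODEL1 and MODEL2, and its ratios to CTRL were 0.523 (0.212 to 1.23) and 0.590 (0.239 to 1.38). Acadm, the medium chain dehydrogenase, had 11, 16 and 8. Pdk4, a kinase that restrains pyruvate oxidation, had 5, 6 and 2. Acot1, a cytosolic acyl-CoA thioesterase, had 0, 4 and 2 counts. With 3 counts put in place of 0 for CTRL, it was 1.12-fold higher in MODEL1. That fold leaves out the counting error of MODEL1, where replicate 1 also had 0 counts. With these counts a difference in Cpt1a, the main regulated step, was not detectable.

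Among the genes of cholesterol synthesis, Fdft1 stood higher in both models than in 2 of the 3 CTRL mice, and Sqle stood lower in the MODEL1 libraries than in those of the other groups, but neither passed the test. Fdft1 (squalene synthase, the first step committed to sterols; chr14:63145150-63179578, minus strand) had levels of 227, 566 and 295 CPM in CTRL, 555, 517 and 537 in MODEL1 and 614, 521 and 556 in MODEL2. CTRL replicates 1 and 3 lay below all 6 model libraries, and CTRL replicate 2 lay among them, so the groups overlapped. The means were 363 ± 180, 536 ± 18.5 and 564 ± 46.8 CPM (SD, n = 3). In edgeR it differed from CTRL by 0.60 ± 0.26 in MODEL1 (adjusted p = 0.111) and by 0.64 ± 0.26 in MODEL2 (adjusted p = 0.119), and the models differed by 0.04 ± 0.26 (adjusted p = 0.958). The pooled ratios to CTRL were 1.53 (1.31 to 1.79) and 1.61 (1.38 to 1.89). Without CTRL replicate 2 both differences passed the threshold, at 1.04 ± 0.24 (edgeR adjusted p = 0.00216) and 1.09 ± 0.24 (edgeR adjusted p = 0.00238). No other alternative called Fdft1. Over all alternatives its differences from CTRL ran from 0.26 to 1.04 in MODEL1 and from 0.39 to 1.11 in MODEL2. Without the 3 libraries with most Rn45s the pooled ratios were 1.23 (0.985 to 1.54) and 1.35 (1.14 to 1.60). Fdft1 shares 774 exon bases with Ctsb, the protease cathepsin B, which lies on the other strand and had 129 counts where Fdft1 had 1180.

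Sqle (squalene epoxidase, a rate-limiting step; chr15:59315077-59331192, plus strand) had levels of 204, 238 and 178 CPM in CTRL, 153, 142 and 163 in MODEL1 and 242, 293 and 179 in MODEL2. Every MODEL1 library lay below every library of the other 2 groups. The differences were -0.41 ± 0.28 in MODEL1 (edgeR adjusted p = 0.321) and 0.20 ± 0.27 in MODEL2 (edgeR adjusted p = 0.709), each against CTRL. Over the alternatives they ran from -0.56 to -0.036 in MODEL1 and from 0.017 to 0.80 in MODEL2. Between the models MODEL2 was higher by 0.61 ± 0.28 (edgeR adjusted p = 0.210), with a pooled ratio of 1.54 (1.23 to 1.94). No exon of another gene lies opposite Sqle, and the nearest gene on the other strand, Washc5, is 805 bases away.

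Lss (lanosterol synthase, which closes the sterol rings; chr10:76531588-76557138, plus strand) also stood lower in MODEL1 than in CTRL without passing the test. Its levels were 75.6, 54.8 and 77.5 CPM in CTRL, 42.7, 34.5 and 49.4 in MODEL1 and 32.5, 65.1 and 57.1 in MODEL2. All MODEL1 libraries lay below those of CTRL, and MODEL2 spread over both. By library totals without TMM, MODEL1 replicate 3 (17 of 325177 counts) lay above CTRL replicate 2 (12 of 247642). In edgeR the differences from CTRL were -0.69 ± 0.45 in MODEL1 (adjusted p = 0.296) and -0.45 ± 0.44 in MODEL2 (adjusted p = 0.577). Lss shares 381 exon bases with 4930483K19Rik on the other strand, which had 1166 counts where Lss had 130.

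Hmgcs1 (cytosolic HMG-CoA synthase, the entry to the mevalonate pathway; chr13:119690379-119708260, plus strand), whose match to the sterol response element is printed above, had 0, 0 and 2 counts in CTRL, 0, 14 and 4 in MODEL1 and 0, 0 and 4 in MODEL2. MODEL1 replicate 2 held most of its counts, and each group had at least 1 library at 0. The pooled ratio of MODEL1 to CTRL was 7.53 (1.80 to 66.9), and its interval with counts halved was 1.04 to 330. The ratio of MODEL2 to MODEL1 was 0.251 (0.0617 to 0.761). Without MODEL1 replicate 2 these ratios were 2.37 (0.340 to 26.2) and 0.797 (0.148 to 4.28). Its exons share 557 bases with Gm48342. Sc5d, a late sterol desaturase with an E-box in its promoter window (chr9:42251595-42264256, minus strand), had 5, 2 and 2 counts in CTRL, 0, 1 and 0 in MODEL1 and 2, 0 and 0 in MODEL2. Neither model overlapped CTRL in CPM, but MODEL2 replicate 1 had the same 2 counts as CTRL replicates 2 and 3. The ratio to CTRL was 0.0929 for MODEL1 (0.00212 to 0.671) and 0.210 for MODEL2 (0.0221 to 1.01). With counts halved both intervals took in 1, with upper ends of 1.42 and 1.98.

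Insig1, the sterol-responsive anchor of SREBP, had 27, 22 and 30 pooled counts in CTRL, MODEL1 and MODEL2, and its ratio to CTRL was 0.681 for MODEL1 (0.370 to 1.24) and 1.05 for MODEL2 (0.603 to 1.83). Mvd, which makes isopentenyl pyrophosphate, had 8, 9 and 9 counts. The other 7 genes of the class had 1 to 6 counts over all 9 libraries. Among these, Nsdhl, a sterol dehydrogenase, had 4 counts in CTRL and 0 in each model. With 3 counts put in place of 0 it was 1.59-fold lower in MODEL1 and 1.41-fold lower in MODEL2. Fdps and Idi1, of the isoprenoid steps, had 3 and 4 counts. Dhcr7 and Pmvk had 6 each and Mvk had 1, all with an antioxidant motif shown above. For Dhcr7 and Pmvk that match lies inside the gene, in the window of a later start. Msmo1, a sterol methyl oxidase, had 2. For these genes the counts allowed no statement on change.

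Summed over a class, counts were led by 1 gene each. Without that gene CTRL and MODEL1 changed places in the order of the group means for cholesterol synthesis and, by little, for fatty acid synthesis, while the oxidation sums kept the order CTRL, MODEL1, MODEL2 from high to low. The synthesis genes summed to 179 ± 79.5, 146 ± 81.4 and 262 ± 44.4 CPM (SD, n = 3) for CTRL, MODEL1 and MODEL2, and without Scd1 to 73.6, 74.7 and 91.2. The oxidation genes summed to 197 ± 74.7, 184 ± 52.5 and 135 ± 7.63 CPM, and without Acadvl to 111, 106 and 75.7. CTRL replicate 3, at 132 CPM, lay inside the MODEL2 range of 126 to 141. The cholesterol genes summed to 714 ± 204, 800 ± 13.6 and 919 ± 77.5 CPM, of which Fdft1 held 60.5%. Without Fdft1 the sums were 351 ± 24.4 in CTRL, 264 ± 32.1 in MODEL1 and 356 ± 65.6 in MODEL2. Sqle led that sum, with 474 counts over all libraries. In it every MODEL1 library, at 231 to 295 CPM, lay below every CTRL library, at 337 to 379. By library totals without TMM this did not hold: MODEL1 replicate 2 (77 of 219504 counts) lay above CTRL replicate 1 (89 of 297541). With Fdft1 the MODEL1 mean was above that of CTRL. No test was made on these sums, since their members are not replicates.

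**Figure D4:**
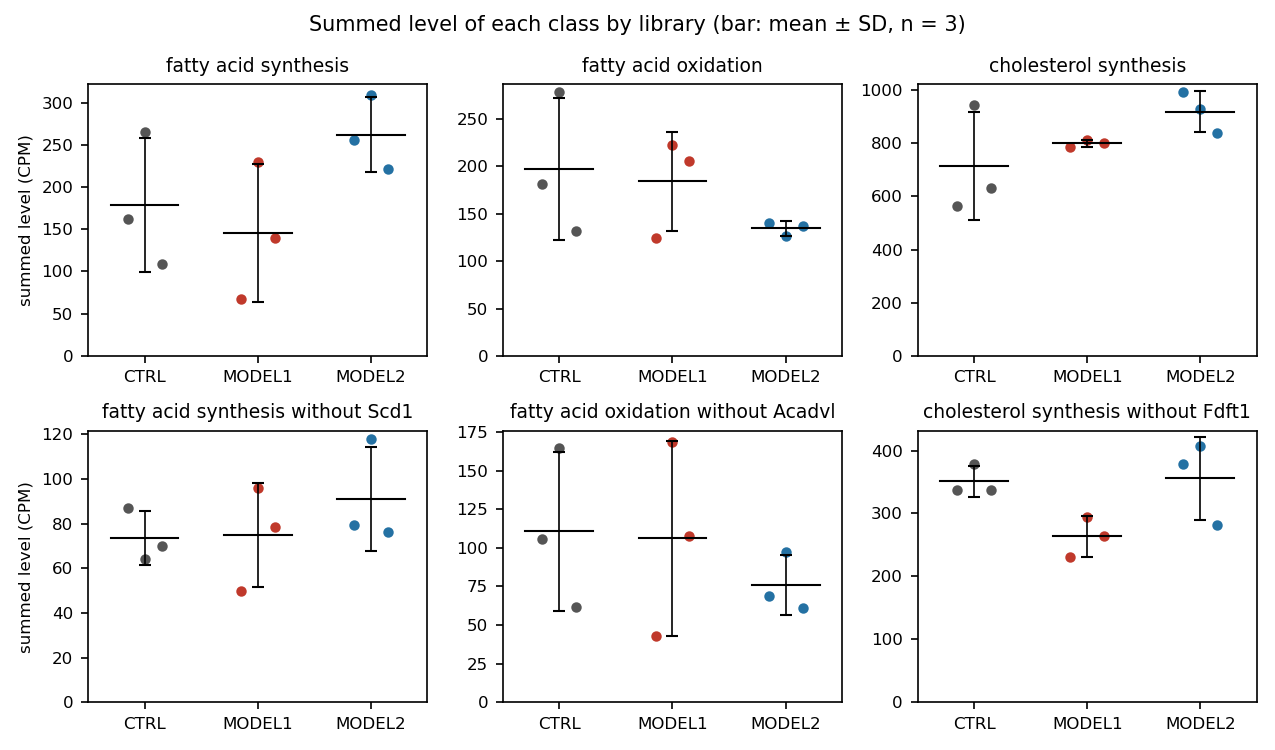
Summed level in CPM (y axis, linear from 0) of each class by library and group, with the mean ± SD of 3 mice, for all members (top) and without the member with most counts (bottom). Without Fdft1 the MODEL1 cholesterol sums (231 to 295 CPM, TMM scaling) lie below those of CTRL (337 to 379), which did not hold by library totals.

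Among related lipid genes outside the list, 3 fell in MODEL1 and none was called in the other comparisons. Of 15 further genes of lipid synthesis and storage, 6 could be tested and 2 fell in MODEL1 against CTRL, with a list median of -1.18, where 22.8% of all tested genes were called. With so few genes tested, this is not a result about the list. Cidec, which enlarges lipid droplets, had 280, 251 and 295 CPM in CTRL, 42.7, 138 and 63.9 in MODEL1 and 173, 159 and 145 in MODEL2. With TMM scaling no 2 of the 3 groups overlapped. Of all tested genes 35.9%, 29.7% and 26.9% did not overlap in MODEL1 against CTRL, MODEL2 against CTRL and MODEL2 against MODEL1. By library totals the models overlapped in Cidec, with MODEL1 replicate 2 (36 of 219504 counts) above MODEL2 replicate 3 (38 of 248443). MODEL1 was lower than CTRL in Cidec by a log2 fold change of -1.74 ± 0.35 (edgeR adjusted p = 0.000694). Fads1, the delta-5 desaturase of polyunsaturated fatty acids, had 56.7, 68.5 and 23.3 CPM in CTRL, 21.3, 15.3 and 2.90 in MODEL1 and 43.3, 52.9 and 72.4 in MODEL2, with -1.89 ± 0.65 (edgeR adjusted p = 0.0395). Of 28 further genes of oxidation, uptake and ketone formation, 7 could be tested and 1 fell, below the 22.8% of all genes, with a list median of -0.54. This was Fabp1, the liver fatty acid binding protein, with 250, 228 and 264 CPM in CTRL, 49.8, 130 and 131 in MODEL1 and 310, 155 and 190 in MODEL2. Its log2 fold change in MODEL1 against CTRL was -1.22 ± 0.35 (edgeR adjusted p = 0.0127).

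DESeq2 made the same 3 calls. Without the 3 libraries with most Rn45s all 3 calls were lost: Cidec stood at -0.996 ± 0.45 (edgeR adjusted p = 0.198), Fabp1 at -0.93 ± 0.48 (0.283) and Fads1 at -1.54 ± 0.95 (0.390). With age as a covariate Cidec kept its call at -1.77 ± 0.49 (edgeR adjusted p = 0.0216). Fabp1, at -1.11 ± 0.50 (0.180), and Fads1, at -1.38 ± 1.01 (0.465), lost theirs. The ages of the groups did not overlap, so this fit cannot tell age from genotype for any of these genes. Without MODEL1 replicate 1 Fabp1 lost its call (edgeR adjusted p = 0.0667). Fads1 lost its call without CTRL replicate 1 or 2, MODEL1 replicate 2 or 3 or MODEL2 replicate 3, with edgeR adjusted p from 0.0542 to 0.181 and log2 fold changes from -2.03 to -1.37. It also lost its call without a filter on low counts, at -1.92 ± 0.65 (edgeR adjusted p = 0.0664), and with the replicate number as a block, at -1.88 ± 0.69 (0.0640). The hepatocyte marker sums given above also stood lower in MODEL1 than in CTRL, and their part in these falls was not tested. In MODEL2 against MODEL1 the 3 genes had log2 fold changes of 0.94 ± 0.36 for Cidec (edgeR adjusted p = 0.123), 1.04 ± 0.35 for Fabp1 (edgeR adjusted p = 0.0772) and 2.08 ± 0.64 for Fads1 (edgeR adjusted p = 0.0526). At an unadjusted p under 0.05 all 3 passed there, and Cidec and the phosphatidate phosphatase Lpin1 passed in MODEL2 against CTRL, by edgeR and by DESeq2. Of 9 regulators, including Srebf1, Ppara and Mlxipl, only Insig2 could be tested, and Ppargc1a had 0 counts. Of 11 further cholesterol genes 4 could be tested, and Abcg8, a sterol exporter whose partner Abcg5 lies on the other strand, had most counts. In these last 2 lists edgeR and DESeq2 called 0 in each comparison, and 0 had an unadjusted p under 0.05.

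**Figure D5:**
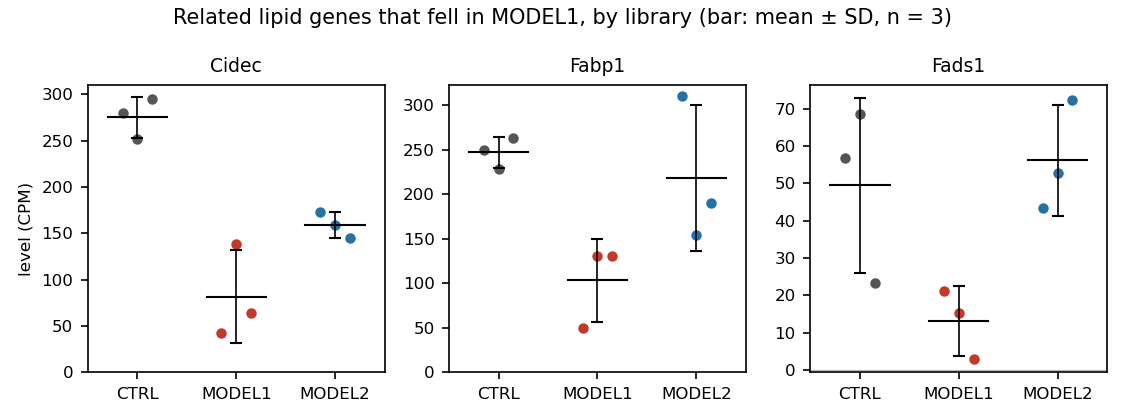
Level in CPM (y axis, linear, with its own range in each panel) of Cidec, Fabp1 and Fads1 by library and group, with the mean ± SD of 3 mice. All 3 MODEL1 libraries lie below all 3 CTRL libraries in each panel. Among all tested genes, 35.9% did not overlap between these 2 groups.

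Markers of most other cell types were low. The Kupffer cell sum was 0 to 7.56 CPM in CTRL, 14.2 to 23.2 in MODEL1 and 0 to 8.14 in MODEL2, with Adgre1 at 0. The cholangiocyte sum was 0 in CTRL, 7.67 to 11.6 in MODEL1 and 0 to 4.07 in MODEL2, with Krt7 and Epcam at 0. It came from Sox9, with 8 pooled counts in MODEL1 and 1 in MODEL2, and from 1 count of Krt19 in MODEL1. Adipocyte markers, whose cells also express Scd1, Fasn and Cidec, summed to at most 4.57, 2.90 and 7.62 CPM in the 3 groups. Endothelial markers summed to 18.9 to 41.1, 7.11 to 53.7 and 20.3 to 34.3 CPM in CTRL, MODEL1 and MODEL2. Stellate cell markers reached at most 13.7, 8.71 and 10.8 CPM, and lymphocyte markers, with Ms4a1 at 0, at most 15.5, 11.6 and 7.22. The erythroid sum of 128 to 469, 322 to 409 and 137 to 281 CPM came from Alas2 alone, with Hba-a1 and Hbb-bs at 0. Their part in the differences of the members was not tested.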

How the data were processed

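Liver RNA of 9 mice was sequenced, and groups and replicate numbers were taken from the labels. The authors deposited 1 table of unnormalized read counts, whole numbers for each gene symbol and library. The submitters' processing notes name HTSeq 0.11.2, HISAT2 2.1.0, Trimmomatic 0.38 and mm10. Their roles, the annotation and the strand setting are not given in the sources used here. The members, related lists, markers and tests were chosen with earlier results of these data known.

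The counts were fitted with edgeR 4.0.16 under R 4.3.3. filterByExpr with the group factor (minimum count 10) kept 2639 genes, and libraries were scaled by TMM. A quasi-likelihood F test used all 9 libraries, 1 coefficient for each group and no covariates, and two-sided p-values received Benjamini-Hochberg adjustment over all genes tested. The standard error is the size of the log2 fold change divided by the square root of F. The common biological coefficient of variation was 0.259. Pooled ratios carry exact conditional binomial intervals. Folds against a group at 0 counts use 3 counts over that group and leave out the counting error of the other group. Full values were printed for members that passed the filter, members whose pooled interval excluded 1 in any comparison and the 2 members of each class with most counts. Symbols were placed with GENCODE M21, and promoters came from RefSeq. The fitting script was tested on simulated data. Replicates of a group differed by more than sampling noise, with chi-square per degree of freedom of 2.73 to 11.8. Alternatives covered scaling, filters, DESeq2 1.42.0, age, Rn45s, a replicate block, the 2 groups alone, genes without an opposite-strand exon and each library left out. Halved counts were added after the data were seen.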

Additional observations from a re-analysis of the deposited data

How the results depend on the processing

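No member was called in MODEL1 or MODEL2 against CTRL under any alternative other than leaving out CTRL replicate 2, which gave 1 and 2 called members, so leave-one-out ranges were 0 to 1 and 0 to 2. In MODEL2 against MODEL1 the count was 1 (Scd1) without a filter and 1 with at least 1 CPM in 3 libraries, and 0 otherwise. Genes called over the whole table moved by over 1.5 times as follows. In MODEL1 against CTRL, 602 became 299 with age, 299 without the libraries rich in Rn45s and 253 among the 999 genes with no opposite-strand exon, where fewer genes were tested. In MODEL2 against CTRL, 350 became 71, 210 and 130, and 221 to 379 with 1 library left out. In MODEL2 against MODEL1, 192 became 101, 62 and 60, and 85 to 226 with 1 library left out.

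Libraries with the same replicate number did not deviate together (correlations from -0.121 to 0.0103), so the numbers do not pair mice. With the replicate number as a block the genes called were 543, 290 and 125 in the 3 comparisons, and 0 members.

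Of the log2 fold changes of tested members under the alternatives, 19 turned sign, none of them called, against 377 that did not. Scd1 in MODEL1 against CTRL became 0.76 with age and 0.18 without the libraries rich in Rn45s, and ran from -1.31 without MODEL1 replicate 2 to 0.29 without CTRL replicate 2. Its pooled ratio became 1.19 without the Rn45s-rich libraries, and ran from 0.416 to 1.20 over the same pair of left-out libraries. Acadvl there became 0.044 with age, and ran from -0.31 without MODEL1 replicate 3 to 0.11 without CTRL replicate 2. Fasn in MODEL2 against CTRL became -0.39 with age. Between the models Fasn became -0.74 with age and -0.55 without the Rn45s-rich libraries, and ran from -0.27 without MODEL1 replicate 3 to 0.60 without MODEL1 replicate 2. Acadvl became 0.17 and Hadha -0.20 without the Rn45s-rich libraries, and Hadha ran from -0.12 without MODEL1 replicate 1 to 0.89 without MODEL1 replicate 2. Fdft1 became -0.0061 with DESeq2 size factors, -0.0062 with DESeq2 and -0.025 with halved counts, and ran from -0.0038 without MODEL2 replicate 1 to 0.093 without MODEL2 replicate 2. Lss became -0.0027 with age. The cause was not tested.

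Summed levels fall by construction without the member with most counts. That member held 58.4% of the counts for synthesis, 43.8% for oxidation and 60.5% for cholesterol. The sums that fell by more than the spread between mice came to 73.6 CPM in CTRL and 91.2 in MODEL2 for synthesis. For oxidation they came to 111, 106 and 75.7 in CTRL, MODEL1 and MODEL2, and for cholesterol to 351, 264 and 356. With library totals the MODEL1 cholesterol sum, Fdft1 included, was 847. Low counts left 27 of 34 members untested, and the cause of the low counts was not tested.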
